A study of Mus musculus with 8 samples.

Results

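The vascular endothelial growth factor (VEGF) family was followed in brown adipose tissue of mice with and without Ogt in brown adipocytes. Its members were picked by gene name, with earlier results of these data known, and all 9 were found among the 54532 genes of the expression table. They comprise 4 ligand genes (Vegfa, Vegfb, Vegfc and Pgf), 3 receptor tyrosine kinase genes (Kdr, Flt1 and Flt4) and 2 coreceptor genes (Nrp1 and Nrp2). The study holds 8 RNA sequencing libraries in 2 groups of 4. WT libraries came from wild-type mice, labelled control, and OGTBKO libraries from mice lacking OGT specifically in brown adipocytes. OGT is the enzyme that adds O-linked N-acetylglucosamine to intracellular proteins. Both groups lived at 23 °C, ate a standard diet and underwent induction after 8 weeks, with an agent whose spelling in the labels is unclear. The tissue, cleared of white fat, was taken 2 months after that. The promoter that drives the deletion is not given in the sources used here. The series title names paracrine stimulation of vessel growth in brown fat, so the comparison asks whether the transcripts of the VEGF system differ once adipocytes lack OGT.

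VEGF-A, made by adipocytes among other cells, binds VEGFR2 (encoded by Kdr), the main signalling receptor of blood vessel endothelium, and VEGFR1 (encoded by Flt1), which binds it tightly but signals weakly and is also made as a soluble decoy. VEGF-B and placental growth factor (Pgf) bind VEGFR1 alone among the receptor kinases, and VEGF-C acts mainly through VEGFR3 (Flt4) on lymphatic vessels. Neuropilin 1 and neuropilin 2 are coreceptors that also bind class 3 semaphorins. Brown fat is densely supplied with capillaries, and its VEGF-A supply is known to affect vessel density and heat production.

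The promoters of the ligands with the highest levels, Vegfa and Vegfb, and of the blood vessel receptors whose ratio is described below, Kdr and Flt1, are shown first. Each runs 5′ to 3′ on the gene's strand from 250 bases before to 50 bases after the RefSeq start site (GRCm38.p6, the mm10 build). All are on the minus strand: Vegfa at chr17:46032328-46032627, Vegfb at chr19:6987602-6987901, Kdr at chr5:75978406-75978705 and Flt1 at chr5:147725962-147726261. Capitals mark matches, on either strand, to 5 motifs: the GC box (GGGCGG), a hypoxia response core with A (ACGTG), a hypoxia response core with G (GCGTG), the ETS core (CCGGAA) and the estrogen-related receptor core (AAGGTCA).
Vegfa: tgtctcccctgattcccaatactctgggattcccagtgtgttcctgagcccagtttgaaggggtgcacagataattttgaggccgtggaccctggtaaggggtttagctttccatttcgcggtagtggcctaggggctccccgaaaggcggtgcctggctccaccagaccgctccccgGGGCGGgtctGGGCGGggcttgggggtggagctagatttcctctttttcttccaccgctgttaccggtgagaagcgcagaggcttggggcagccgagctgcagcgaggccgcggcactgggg
Vegfb: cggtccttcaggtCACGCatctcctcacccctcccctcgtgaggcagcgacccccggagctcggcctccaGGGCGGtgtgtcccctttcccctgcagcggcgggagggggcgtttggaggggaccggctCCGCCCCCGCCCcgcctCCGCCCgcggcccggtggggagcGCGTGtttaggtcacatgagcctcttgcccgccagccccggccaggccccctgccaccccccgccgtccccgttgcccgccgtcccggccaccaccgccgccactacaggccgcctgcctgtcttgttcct
Kdr: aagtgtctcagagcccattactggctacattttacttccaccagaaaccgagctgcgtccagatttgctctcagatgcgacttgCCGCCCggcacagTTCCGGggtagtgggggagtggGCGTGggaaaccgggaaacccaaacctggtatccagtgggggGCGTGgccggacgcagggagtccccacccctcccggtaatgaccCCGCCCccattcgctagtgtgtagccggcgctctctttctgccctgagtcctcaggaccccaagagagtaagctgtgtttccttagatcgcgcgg
Flt1: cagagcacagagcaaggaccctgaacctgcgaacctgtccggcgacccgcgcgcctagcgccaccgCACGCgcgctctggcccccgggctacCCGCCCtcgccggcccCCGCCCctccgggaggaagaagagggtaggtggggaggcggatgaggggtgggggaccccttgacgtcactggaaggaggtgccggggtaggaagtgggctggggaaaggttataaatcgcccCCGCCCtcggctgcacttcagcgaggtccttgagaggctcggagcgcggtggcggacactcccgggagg
The Vegfa window held 2 GC boxes and no other match, and the Vegfb window held 4 GC boxes, of which 2 abut, and 2 hypoxia cores with G. Kdr had 2 GC boxes, 2 hypoxia cores with G and 1 ETS core, and Flt1 had 3 GC boxes and 1 hypoxia core with G. None of the matches in these 4 windows overlapped. RefSeq windows were found for 9 of 9 members, Vegfa and Pgf with a pair each. A GC box stood in at least 1 window of 9 of 9 members, against 35.7% of 32851 promoters of the same length, and the hypoxia core with G in 7 of 9 against 32.4%. The hypoxia core with A (in the other Vegfa window), the ETS core (Kdr) and the estrogen-related receptor core (Nrp1) were each found in 1 of 9 members, against 19.6%, 14.9% and 4.72% of all promoters. The members' windows held between 59.3% and 75.3% G and C, above the median of 52.7% over all promoters. These matches describe letters only.

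Levels are given in FPKM, fragments per kilobase of gene scaled for depth, so genes can be compared with each other. Reads assigned to genes numbered from 13393962 to 15897920 per library. The targeted gene Ogt was lower in every OGTBKO library, at 10.7 to 14.5 FPKM against 22.5 to 33.1 FPKM in WT. Transcripts of brown adipocytes were abundant in all libraries, the labelled tissue, with Ucp1 at a mean of 2051 FPKM (WT) and 1006 FPKM (OGTBKO), Cox8b at 775 and 1152 FPKM and Cidea at 671 and 634 FPKM. Skeletal muscle transcripts were not even: the summed level of 8 muscle markers was 467, 0.946, 0.383 and 34.9 FPKM in WT 1, 2, 3 and 4 and 1354, 1.19, 5.60 and 0.942 FPKM in OGTBKO 1, 2, 3 and 4. Acta1, the actin of skeletal muscle, was at 255 FPKM in WT 1 and 625 FPKM in OGTBKO 1. Muscle creatine kinase (Ckm) was listed at 0 in 4 of the libraries, WT 2, WT 3, OGTBKO 2 and OGTBKO 4. WT 1 and OGTBKO 1 therefore stand apart, and results are given with and without this pair where it matters, an alternative chosen after the data were seen. WT 3 stood out in another way, with 39.4% of its reads in mitochondrial genes against 25.2% to 32.2% in the other libraries. In whole tissue, fewer cells of a type and less RNA per cell cannot be told apart. The labels do not say outright that each sample came from its own animal, so p-values cover only the spread among these samples, which may be technical.

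Vegfb and Vegfa were the most abundant members, at means of 58.8 and 54.9 FPKM over the 8 libraries, above 95.9% and 95.6% of the 13171 genes tested. Nrp1 followed at 25.7 FPKM, Kdr at 23.1, Nrp2 at 14.0 and Flt1 at 9.85. Flt4 (1.21 FPKM), Vegfc (1.10) and Pgf (0.250) were low. Neighbours in this order that did not separate were Vegfb and Vegfa (Vegfb higher in 5 of 8 libraries), Nrp1 and Kdr (Nrp1 higher in 5 of 8) and Flt4 and Vegfc (Flt4 higher in 4 of 8). Kdr was above Nrp2, and Nrp2 above Flt1, in 8 of 8 libraries, though the ranges of both pairs over all libraries overlapped. Together Vegfa and Vegfb made up between 95.9% and 98.4% of the summed FPKM of the 5 ligand genes, Vegfd included, in every library. Placental growth factor rested on only 5 to 18 reads per library and Vegfc on 17 to 70, against 1971 to 4510 reads for Vegfa, so the values of the former pair are imprecise.

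**Figure D1:**
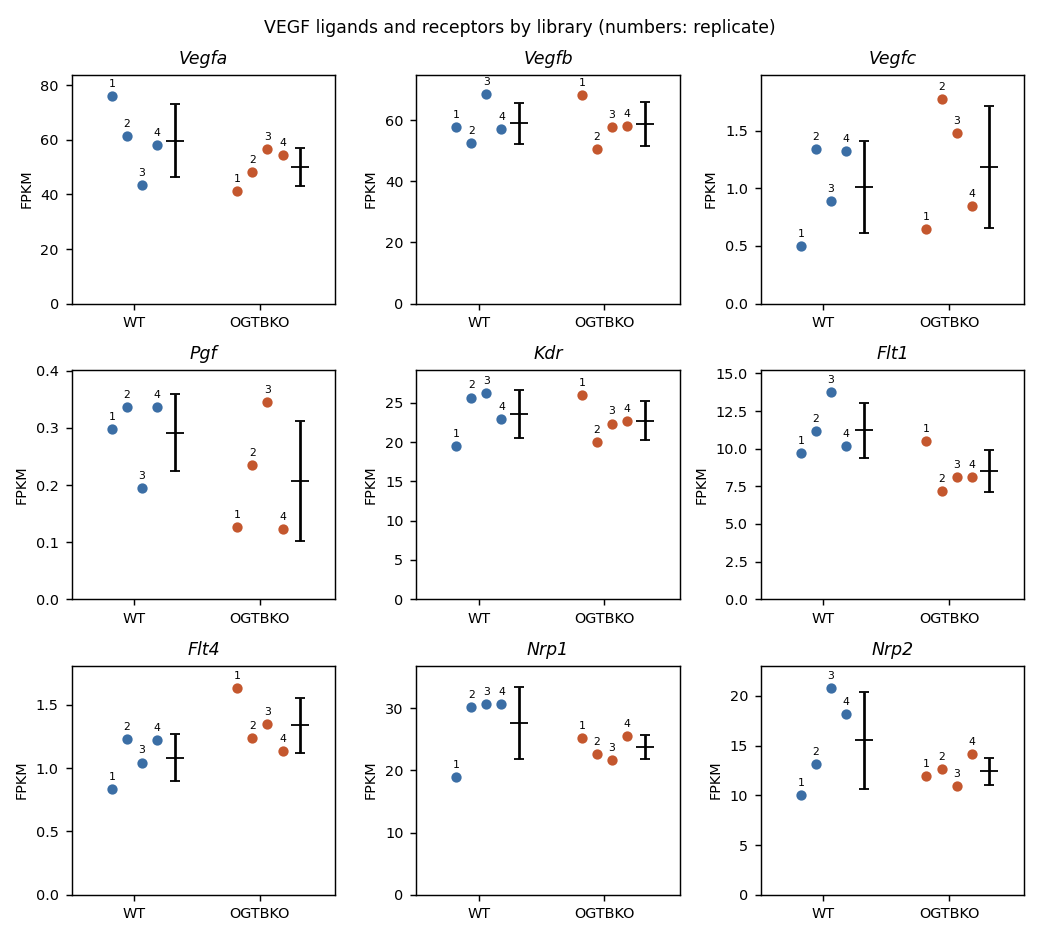
FPKM of the 9 VEGF family members in each library (points, numbered by replicate), with the mean and SD of each group of 4 (black bars); each panel has its own axis from 0. The groups overlap in every panel, and Flt1 in OGTBKO 2 to OGTBKO 4 lies below all 4 WT libraries.

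None of the members passed the test between the groups. Of the 8 tested, 0 had an adjusted p under 0.05 (limma, Benjamini-Hochberg over all genes tested), where 15.6% of all genes tested did, and 1, Flt1, had an unadjusted p under 0.05, where 32.8% of all genes did. limma with voom on the back-calculated reads also called 0 of the 8, where it called 2322 of all 13171 genes tested. Pgf did not reach the minimum mean of 0.5 FPKM and was not tested. The groups overlapped in 9 of 9 members, whereas they did not overlap in 22.5% of genes tested. The median log2 change of the 8 members was -0.12 (OGTBKO minus WT), beside 0.00 over all genes tested, and 6 of 8 were below 0, as were 50.2% of all genes. Fold changes are on the log2(FPKM + 0.5) scale, which understates the change of low genes.

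Among the ligands, Vegfa (ENSMUSG00000023951, chromosome 17, 46016993 to 46032369, minus strand, mm10, protein-coding) measured 75.9, 61.3, 43.4 and 58.0 FPKM in WT 1 to WT 4. It measured 41.2, 48.3, 56.8 and 54.3 FPKM in OGTBKO 1 to OGTBKO 4. The highest value of all was WT 1 and the lowest OGTBKO 1, the 2 libraries with the most muscle transcripts, and the other 6 lay between 43.4 and 61.3 FPKM. The log2 change was -0.23 ± 0.17 (SE; adjusted p = 0.396), with a 95% interval from -0.62 to 0.16. With WT 1 and OGTBKO 1 left out it was -0.02 (adjusted p = 0.952). The part of muscle in the Vegfa values was not tested.

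Vegfb (ENSMUSG00000024962, chromosome 19, 6982473 to 6987651, minus strand) encodes a ligand of VEGFR1 linked to fatty acid handling in metabolic tissue. It measured 57.9, 52.7, 68.4 and 57.1 FPKM in WT and 68.3, 50.6, 57.6 and 58.0 FPKM in OGTBKO libraries, in replicate order. WT 3 and OGTBKO 1 were high and the groups covered almost the same range. Mean levels of 59.0 ± 6.69 and 58.6 ± 7.26 FPKM (SD, n = 4 each) lay side by side, and the log2 change was -0.01 with a 95% interval from -0.29 to 0.27 (adjusted p = 0.966). Its longest transcript has 62.6% G and C, the highest of the family. With each library's trend on GC content and length removed, its log2 change was -0.33 (adjusted p = 0.0888), and with library totals as the FPKM denominator it was 0.10.

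The ligand pair differed in which libraries were high. Vegfa exceeded Vegfb in 3 of 4 WT libraries (1.31, 1.16 and 1.02 times, and 0.635 times in WT 3), and in 0 of 4 OGTBKO libraries (0.604, 0.955, 0.985 and 0.936 times). The ranges overlapped through WT 3, and this ratio was looked at after its values were seen, so no test is given. Vegfa and Vegfb differ in GC content, 50.9% against 62.6%, and in length, 4285 against 1605 bases. Their log2 changes were -0.23 and -0.01 in the main fit. With the GC and length trend removed they were -0.31 and -0.33, nearly alike, so the lower ratio in OGTBKO libraries rests on that trend being left in.

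Vegfc (ENSMUSG00000031520, chromosome 8, 54077606 to 54187096, plus strand), the lymphatic growth factor, measured 0.501, 1.34, 0.887 and 1.32 FPKM in WT and 0.647, 1.77, 1.48 and 0.851 FPKM in OGTBKO libraries. The lowest library of each group was number 1, and the groups overlapped widely. The log2 change was 0.14 ± 0.27 (SE; adjusted p = 0.758), with a 95% interval from -0.47 to 0.76, the widest of the 8 members tested. Pgf (ENSMUSG00000004791, chromosome 12, 85166635 to 85177790, minus strand), a ligand of VEGFR1 first found in placenta, measured 0.195 to 0.337 FPKM in WT and 0.124 to 0.345 FPKM in OGTBKO libraries. Tested without the filter on low values, its log2 change was -0.17 (adjusted p = 0.547). The further ligand Vegfd, outside the family as chosen here, averaged 2.32 ± 0.387 FPKM in the WT group and 1.84 ± 0.633 FPKM in the OGTBKO group (SD, n = 4 each; adjusted p = 0.371).

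Among the receptors, Kdr (ENSMUSG00000062960, chromosome 5, 75932827 to 75978458, minus strand), encoding VEGFR2, was the most even. It measured 19.5, 25.7, 26.2 and 22.9 FPKM in WT and 26.0, 20.003, 22.4 and 22.6 FPKM in OGTBKO libraries. Its highest and lowest values, WT 3 and WT 1, were both WT, so the WT range enclosed all OGTBKO values. The log2 change was -0.05 ± 0.12 (SE; adjusted p = 0.835), with a 95% interval from -0.33 to 0.23, and its sign turned with library totals as denominator (0.07).

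Flt1 (ENSMUSG00000029648, chromosome 5, 147561604 to 147726011, minus strand) came closest to the threshold. It measured 9.73, 11.1, 13.8 and 10.2 FPKM in WT and 10.5, 7.21, 8.11 and 8.14 FPKM in OGTBKO libraries. OGTBKO 2, OGTBKO 3 and OGTBKO 4 were below every WT library, and OGTBKO 1 lay within the WT range. Its WT mean was 11.2 ± 1.80 FPKM and its OGTBKO mean 8.48 ± 1.40 FPKM (SD, n = 4 each). The log2 change was -0.38 ± 0.14 (SE), with a 95% interval from -0.70 to -0.06. The unadjusted limma p was 0.0252 and the adjusted p 0.09997, so Flt1 was not called. It was called with array weights, which weigh down libraries far from their group (adjusted p = 0.0356), and with WT 1 and OGTBKO 1 left out (log2 -0.54, adjusted p = 0.0385). Array weights called 3516 of all 13171 genes tested, against 2050 in the main fit. Flt1 was not called in limma with the replicate number as a block (adjusted p = 0.175) or without the filter on low values (adjusted p = 0.170). Nor was it called with library totals as denominator (log2 -0.27, adjusted p = 0.207) or with the GC and length trend removed (log2 -0.28, adjusted p = 0.125). Over the fits without a single library the log2 change lay between -0.48 and -0.28, and the adjusted p between 0.0516 and 0.216. The deposited values are per gene, so the soluble and membrane forms of VEGFR1 cannot be told apart.

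Flt4 (ENSMUSG00000020357, chromosome 11, 49609263 to 49652739, plus strand), the receptor for VEGF-C, measured 0.832, 1.23, 1.04 and 1.22 FPKM in WT and 1.64, 1.24, 1.34 and 1.13 FPKM in OGTBKO libraries. OGTBKO 1 and OGTBKO 3 were above all WT libraries and OGTBKO 4 was among them. OGTBKO 2 (1.237 FPKM) was level with the highest WT library, WT 2 (1.230 FPKM). The log2 change was 0.22 ± 0.14 (SE; adjusted p = 0.324), with a 95% interval from -0.10 to 0.54. The summed level of 6 lymphatic endothelial markers, led by Lyve1 and Pdpn, ran from 3.10 to 9.13 FPKM in WT and from 1.22 to 5.66 FPKM in OGTBKO libraries. Ccl21a, Reln and Mmrn1 were at most 0.179, 0.252 and 0.334 FPKM, so the sum rested almost wholly on Lyve1 and Pdpn. Whether cells other than lymphatic endothelium contributed to it was not tested. Prox1, the transcription factor that defines lymphatic endothelium, was at most 0.0726 FPKM and was listed at 0 in WT 3 and OGTBKO 3.

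The coreceptor Nrp1 (ENSMUSG00000025810, chromosome 8, 128358604 to 128503363, plus strand) measured 19.0, 30.3, 30.6 and 30.6 FPKM in WT and 25.2, 22.7, 21.7 and 25.6 FPKM in OGTBKO libraries. WT 1 was the lowest of the 8 and the other WT libraries the highest 3, with all OGTBKO libraries between them. The log2 change was -0.19 ± 0.16 (SE; adjusted p = 0.463). Without WT 1 it was -0.36 (adjusted p = 0.0448), so this library decided whether Nrp1 was called, and without both WT 1 and OGTBKO 1 it was -0.38 (adjusted p = 0.0487). With the GC and length trend removed the sign turned (log2 0.05), and Nrp1 has the lowest GC content of the family, at 41.9%.

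Nrp2 (ENSMUSG00000025969, chromosome 1, 62703285 to 62818695, plus strand), the neuropilin tied mainly to lymphatic and venous vessels, measured 10.04, 13.1, 20.8 and 18.2 FPKM in WT and 12.0, 12.6, 11.0 and 14.2 FPKM in OGTBKO libraries. WT 3 and WT 4 were high and WT 1 was the lowest of all. The SD was 4.87 FPKM among WT and 1.34 FPKM among OGTBKO libraries, and the log2 change was -0.26 ± 0.21 (SE; adjusted p = 0.415). Nrp2 overlaps the antisense gene model Gm29083 (mean 0.0872 FPKM) and Gm37121 (mean 0.502 FPKM), and the use of strand in counting is not given in the sources used here.

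**Figure D2:**
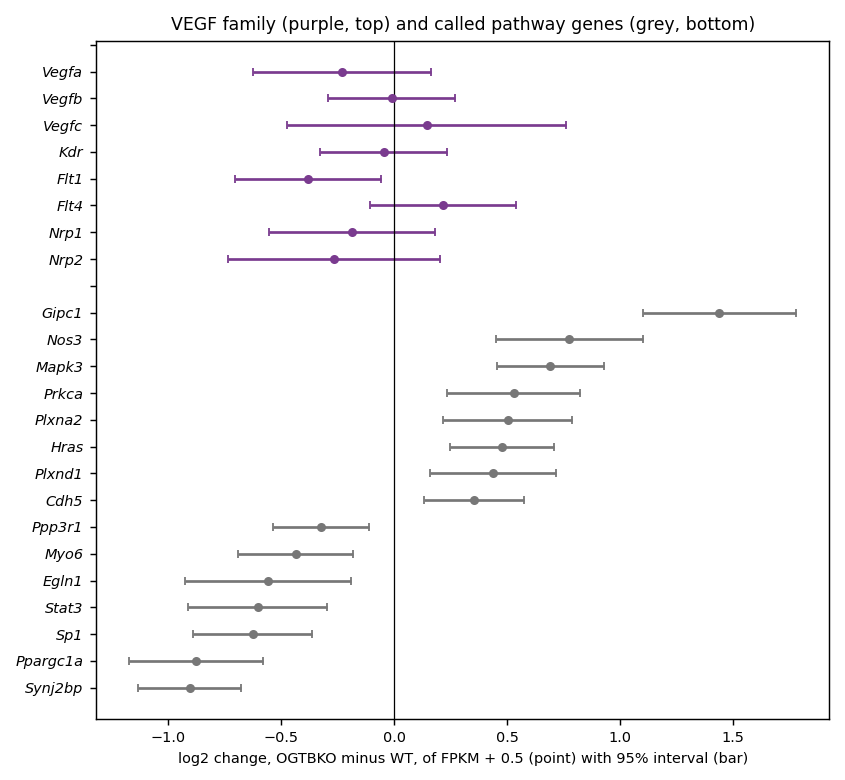
Log2 change (OGTBKO minus WT) on the log2(FPKM + 0.5) scale with its 95% interval for the 8 members tested (purple) and the 15 other genes of the VEGF lists that passed the test (grey). The intervals of 7 members include 0 and that of Flt1 runs from -0.70 to -0.06.

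Ligand and receptor levels were then set against each other within each library, in 9 pairs. These follow known binding or, for Flt1 over Kdr, the decoy role of VEGFR1, and were chosen with earlier results of these data known. A ratio within a library does not depend on how that library was scaled, apart from the pseudocount. The ratio of Flt1 to Kdr was 0.4999, 0.434, 0.525 and 0.445 in the WT libraries and 0.404, 0.360, 0.363 and 0.359 in the OGTBKO libraries, in replicate order. All 4 OGTBKO libraries were below all 4 WT libraries, at means of 0.372 ± 0.0214 against 0.476 ± 0.0436 (SD, n = 4 each). Among single genes tested, 22.5% also had groups that did not overlap, and no such share was computed for other gene pairs. The difference in log2 ratio of Flt1 to Kdr was -0.34, with an exact two-sided permutation p = 0.0286, the smallest that 4 against 4 allows. The adjusted p was 0.129 over the 9 pairs (exact permutation, Benjamini-Hochberg), which did not pass. A pair at this smallest p could pass only if most of the 9 pairs were at it too, so the adjusted p decides little. The unadjusted p does not stand in for it, since the pairs were chosen with earlier results of these data known. With WT 1 and OGTBKO 1 left out the difference was -0.35, and over the comparisons without a single library it ran from -0.38 to -0.29. Once the trend of each library on GC content and length was taken out, an alternative chosen after the data were seen, the difference was -0.28. The groups still did not overlap (exact two-sided permutation p = 0.0286, adjusted p = 0.229 over 8 pairs, which did not pass). Flt1 and Kdr have GC contents of 50.5% and 49.4%, and their lengths as counted were 13504 and 9030 bases.

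The ratio of Vegfb to Flt1 was the other pair whose groups did not overlap, and it shares Flt1 with the first. It was 5.95, 4.73, 4.97 and 5.60 in WT and 6.52, 7.02, 7.10 and 7.13 in OGTBKO libraries. Every OGTBKO library was above every WT library, with a difference in log2 ratio of 0.37 (exact two-sided permutation p = 0.0286, adjusted p = 0.129 over the 9 pairs). These genes differ in GC content, 62.6% against 50.5%, and in length, 1605 against 13504 bases. Once the GC and length trend was taken out, the difference was -0.05 (exact two-sided permutation p = 0.514), so the separation and its direction did not hold.

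The main ligand and receptor pair showed no such separation. Vegfa over Kdr was 3.90, 2.39, 1.66 and 2.53 in WT and 1.59, 2.42, 2.54 and 2.40 in OGTBKO libraries. The WT libraries spread from the highest value to nearly the lowest, and 3 OGTBKO libraries lay close together. The difference in log2 ratio was -0.18 (exact two-sided permutation p = 0.514), and 0.18 with WT 1 and OGTBKO 1 left out, so its sign rested on those libraries. Vegfa over Flt1 (5.54 ± 1.90 in WT and 6.08 ± 1.44 in OGTBKO tissue) and Vegfa over Nrp1 (2.34 ± 1.14 and 2.13 ± 0.403; SD, n = 4 each) overlapped as well. With WT 1 and OGTBKO 1 left out, both were higher in every remaining OGTBKO library. Vegfa over Flt1 was then 3.16 to 5.69 in WT and 6.67 to 7.00 in OGTBKO libraries, a difference in log2 ratio of 0.53 against 0.15 with all libraries. Vegfa over Nrp1 was 1.42 to 2.02 and 2.12 to 2.62, a difference of 0.37 against -0.04. Neither passed (adjusted p = 0.225 each, exact permutation), and 3 against 3 cannot give a p below 0.1. With the GC and length trend removed, log2 Vegfa over Nrp1 in the remaining libraries was 0.73 to 1.19 in WT and 0.95 to 1.17 in OGTBKO, so the groups overlapped. Log2 Vegfa over Flt1 was then 1.85 to 2.49 in WT and 2.55 to 2.62 in OGTBKO, still apart. How often other gene pairs separate in these libraries was not examined. The 4 pairs with Vegfc or Pgf overlapped, with exact permutation p between 0.314 and 0.886. The summed FPKM of the 5 ligand genes was 2.82 to 4.57 times that of the 3 receptor kinases in WT and 2.95 to 3.72 times in OGTBKO libraries. Within the receptor kinases, Flt1 took 29.3% to 33.6% of the summed FPKM in WT and 25.3% to 27.5% in OGTBKO libraries, which restates the Flt1 to Kdr ratio.

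**Figure D3:**
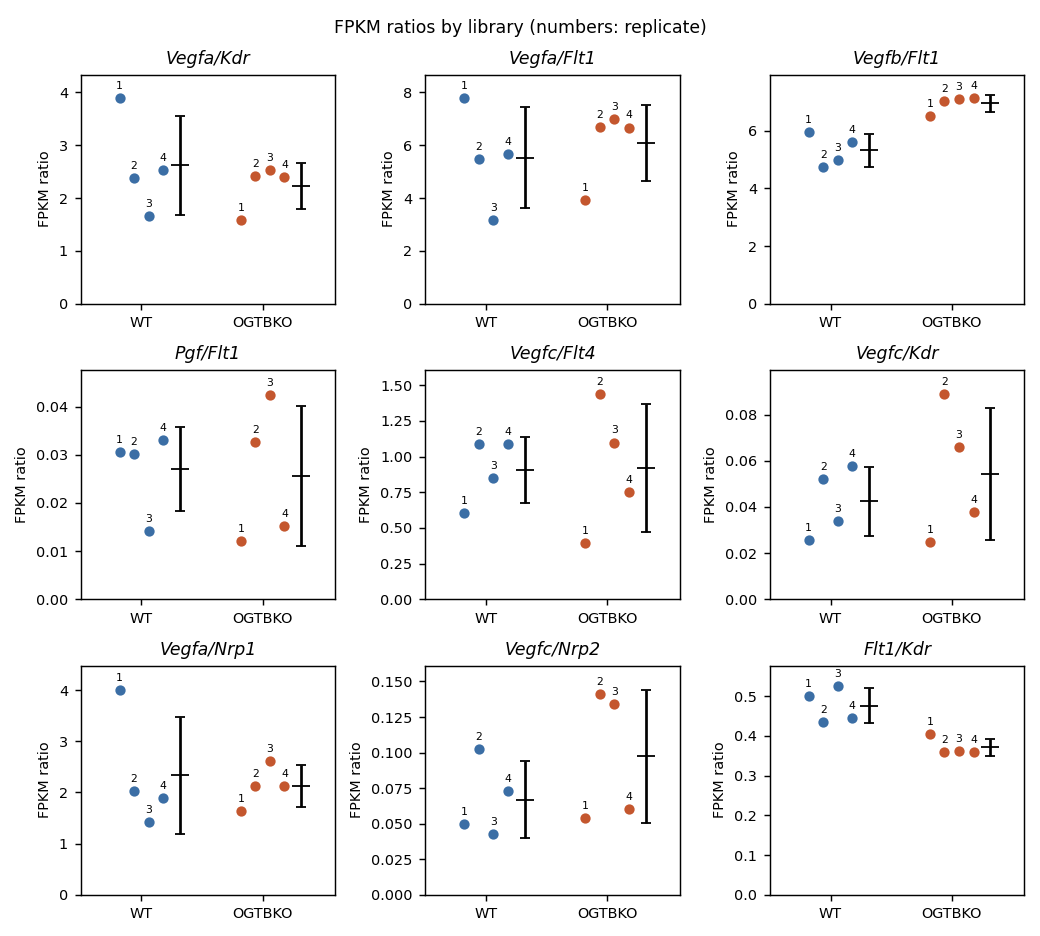
FPKM ratio of 9 pairs of family members in each library (points, numbered by replicate), with the mean and SD of each group of 4 (black bars) and each axis from 0. Vegfb/Flt1 and Flt1/Kdr separate the groups and the other 7 pairs overlap; with the GC and length trend removed, which is not plotted, Vegfb/Flt1 turned to -0.05 on the log2 scale.

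Family members differed in how closely they followed each other across the 8 libraries. As a measure of likeness, the log2 levels of each gene were centred on their mean and the root mean square difference between 2 genes was taken, so a smaller value means a closer pattern. It was 0.15 between Kdr and Nrp1, 0.18 between Nrp1 and Nrp2 and 0.19 between Kdr and Flt1, but 0.34 between Flt1 and Flt4 and 0.38 between Flt4 and Nrp2. Among ligands it was 0.20 between Vegfa and Pgf, 0.36 between Vegfa and Vegfb and 0.49 between Vegfa and Vegfc. Vegfa stood at 0.37 from Kdr. The smallest of all pairs, 0.14, was that between Vegfb and Kdr, which both varied little, and the largest, 0.55, that between Vegfc and Flt1. WT 1 was high in Vegfa (0.49 above its mean) and low in Nrp1 (-0.41), Nrp2 (-0.42), Flt4 (-0.35) and Vegfc (-0.63), and WT 3 was high in Nrp2 (0.59) and Flt1 (0.49). These libraries share tissue composition, depth and scaling with all other genes, so the values are descriptive.

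**Figure D4:**
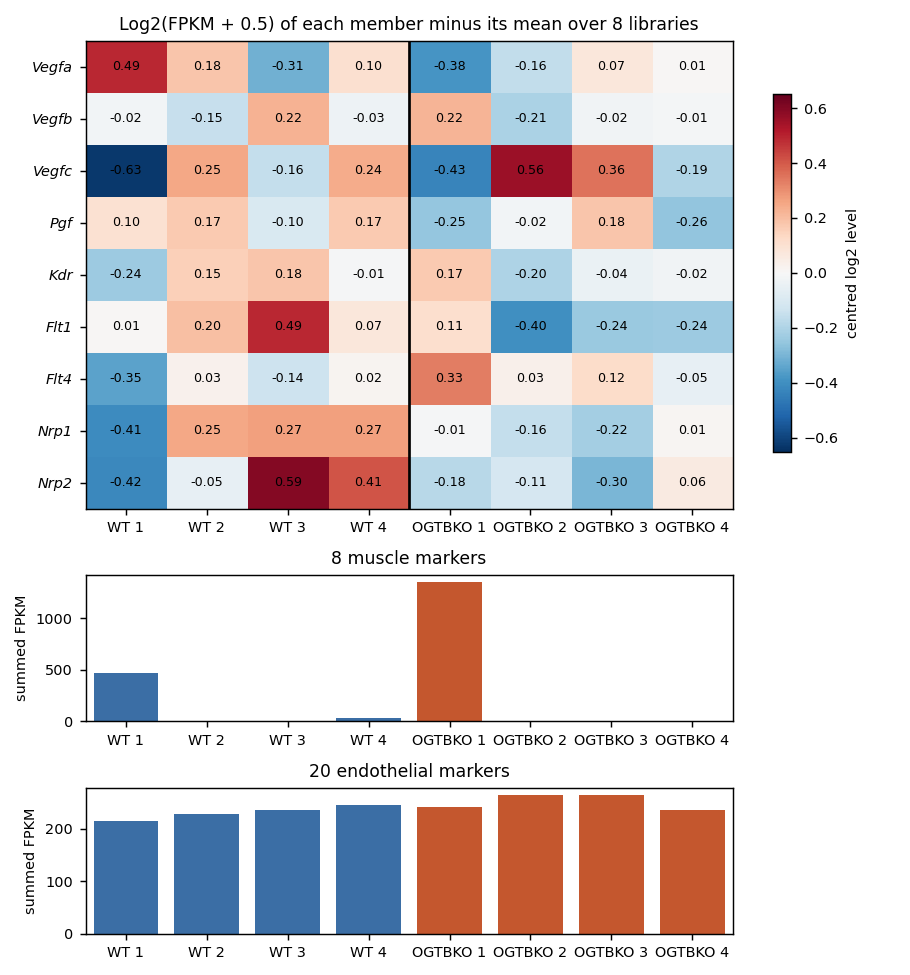
Top, log2(FPKM + 0.5) of each member minus its mean over the 8 libraries, by library (red above, blue below the mean). Middle and bottom, the summed FPKM of 8 skeletal muscle and 20 endothelial markers: muscle transcripts are high in WT 1 and OGTBKO 1, and endothelial sums run from 214 to 265.

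Likeness was also taken to 9899 other named protein-coding genes, those averaging 1 FPKM or more. The closest to Vegfa by this measure were Khdc4 (0.06), Rgs7 (0.08), Rps19 (0.08) and Gtf2a2 (0.08), where the median gene stood at 0.36. Ppip5k1, a kinase of inositol pyrophosphate synthesis, was the closest to Flt1 (0.02), followed by Tnrc6b, Atg9a and Bckdk (0.07 each). Retreg3 was closest to Kdr (0.04), followed by Slc27a4 (0.05), Pcnx (0.05) and Arhgef18 (0.06), and Pdcd11 to Vegfb (0.04, before Nsa2, Zhx2 and Ino80c). None of the 16 was on the endothelial list. That list holds only 20 genes beside the 9899 compared, so its absence here was likely in advance and says little.

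The receptors are mainly made by endothelium, so endothelial markers were set beside them. Of 20 tested, 1 was higher, Cdh5, and 0 were lower (limma), where 15.6% of all genes passed, and their median log2 change was 0.13. At an unadjusted p under 0.05 there were 4, all higher, where 32.8% of all genes tested had such a p. Voom called 3 of the 20 higher and 0 lower, where it called 2322 of all 13171 genes tested in either direction. Eng averaged 30.1 and 29.0 FPKM and Sox18 19.5 and 22.8 FPKM in WT and OGTBKO. Their summed level was 214 to 244 FPKM in WT and 235 to 265 FPKM in OGTBKO libraries. Relative to the mean log2 level of these markers, Flt1 stood at 0.45 ± 0.22 in WT and -0.05 ± 0.30 in OGTBKO libraries and Kdr at 1.49 ± 0.16 and 1.33 ± 0.25 (SD, n = 4 each). Nrp1 stood at 1.70 ± 0.26 and 1.39 ± 0.22 and Nrp2 at 0.86 ± 0.39 and 0.48 ± 0.23 (SD, n = 4 each). Flt4 went the other way, at -2.44 ± 0.11 and -2.34 ± 0.21 (SD, n = 4 each). These differences were examined after the gene values were known, and no test is given. Nos3, endothelial nitric oxide synthase, which lies downstream of VEGFR2, rose from 3.21 ± 0.706 to 5.79 ± 0.568 FPKM (SD, n = 4 each; log2 0.78 ± 0.14 SE, adjusted p = 0.0115).

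The rest of the VEGF pathway was covered by 6 lists holding 108 genes other than the members, of which 93 were tested. Of these, 8 were higher and 7 were lower in OGTBKO tissue, a share of 16.1% beside 15.6% of all genes tested, so the share was near the background. Nos3 was the only call among 15 tested genes that VEGF induces in endothelium, Flt1 counted among them (1 higher, 0 lower in limma, and 2 higher, 0 lower with voom). Over all 13171 genes tested, voom called 2322 in either direction. Of the 15, 8 had an unadjusted p under 0.05, where 32.8% of all genes tested did. Flt1 and Hlx among these 8 were lower and the others higher. The tip cell ligand Dll4 was at 2.08 ± 0.983 and 3.24 ± 0.607 FPKM (SD, n = 4 each; adjusted p = 0.115), and the tip cell marker Esm1 was too low to test.

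In receptor signalling, 3 of 30 genes were higher and 1 lower, where 8.11% of all genes tested were higher and 7.46% lower. The kinase ERK1 (Mapk3) measured 18.6, 17.5, 21.9 and 22.005 FPKM in WT and 31.1, 31.2, 33.4 and 34.1 FPKM in OGTBKO libraries. Every OGTBKO value was above every WT value, with a log2 rise of 0.69 ± 0.10 (SE; adjusted p = 0.00644). Hras (log2 0.48) and protein kinase C alpha (Prkca, log2 0.53) rose as well, and the calcineurin subunit Ppp3r1 fell (log2 -0.32), all 3 of them calls that ended in at least 3 of the fits without a single library.

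Genes that carry the receptors through the cell or restrain them held 2 higher and 2 lower of 16, where 8.11% of all genes tested were higher and 7.46% lower. Gipc1, an adaptor that binds neuropilin 1 and takes part in its trafficking, measured 4.13, 5.09, 5.30 and 5.62 FPKM in WT and 15.96, 10.9, 16.9 and 14.7 FPKM in OGTBKO libraries. No OGTBKO library came near the WT range, with a log2 rise of 1.44 ± 0.15 (SE; adjusted p = 0.00236). Synj2bp, a mitochondrial outer membrane protein that also acts in endothelial Notch signalling, fell from 9.97 ± 0.855 to 5.09 ± 0.447 FPKM (SD, n = 4 each; log2 -0.90, adjusted p = 0.00244). The motor protein Myo6 fell (log2 -0.44) and Cdh5, the cadherin of endothelial junctions, rose (log2 0.35), calls that ended in 5 and 7 of the 8 fits without a single library. These genes are expressed in many cell types, and which cells carried the change was not tested.

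Of 7 tested neuropilin partners, the semaphorin receptors Plxna2 (log2 0.50, adjusted p = 0.0301) and Plxnd1 (log2 0.44, adjusted p = 0.0438) rose and 0 fell, with limma and with voom, and no others had an unadjusted p under 0.05. Of all genes tested, limma called 8.11% higher and 7.46% lower, and 32.8% had an unadjusted p under 0.05. Voom called 2322 of the 13171 in either direction. The Plxna2 call ended in 5 and the Plxnd1 call in 7 of the 8 fits without a single library. Among 10 tested genes of VEGF-C and VEGF-D processing and storage 0 passed in limma and 0 with voom, and 1 had an unadjusted p under 0.05. The smallest p values belonged to the convertases Pcsk5 (log2 -0.46, adjusted p = 0.137) and Furin (log2 0.29, adjusted p = 0.232).

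Known regulators of the Vegfa transcript had 4 of 17 lower and 0 higher in limma, where 7.46% of all genes were lower. With voom 4 were lower and 1 higher, beside 2322 of all 13171 genes tested called in either direction. At an unadjusted p under 0.05 there were 6 of the 17 regulators, where 32.8% of all genes tested had such a p. The coactivator Ppargc1a, which drives Vegfa in muscle and fat, measured 12.6, 13.1, 12.0 and 16.8 FPKM in WT and 6.26, 6.89, 7.17 and 8.36 FPKM in OGTBKO libraries, without overlap (log2 -0.87 ± 0.13 SE, adjusted p = 0.00628). The transcription factor Sp1, which binds GC boxes of the kind capitalised above, fell from 10.1 ± 1.17 to 6.36 ± 0.727 FPKM (SD, n = 4 each; adjusted p = 0.0116), while Stat3 (log2 -0.60, adjusted p = 0.0223) and the oxygen sensor Egln1 (log2 -0.56, adjusted p = 0.0485) fell as well. The Stat3 call ended in 3 and the Egln1 call in 7 of the 8 fits without a single library. The hypoxia-inducible factors themselves did not pass, Hif1a at 15.5 ± 1.14 and 13.5 ± 1.80 FPKM and Epas1 at 101 ± 27.6 and 89.8 ± 10.7 FPKM (SD, n = 4 each). Of the 15 calls over these lists, 9 ended in at least 1 of the fits without a single library, and 3, Gipc1, Synj2bp and Ppargc1a, held in every alternative tried.

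Other cell types that can hold these transcripts varied between libraries as well. Summed macrophage markers ran from 184 to 363 FPKM in WT and from 249 to 569 FPKM in OGTBKO libraries, led by Lyz2, C1qb and Cd68. Pericyte and smooth muscle markers, led by Rgs5, Acta2 and Des, ran from 139 to 213 and from 153 to 215 FPKM. The upper end of 215 FPKM was OGTBKO 1, the library with the most muscle transcripts. Des was at 55.3 FPKM there and 19.4 FPKM in WT 1, against 8.49 to 12.3 FPKM in the other libraries. Fibroblast and progenitor markers, led by Col3a1, Dcn and Col1a1, ran from 267 to 340 and from 189 to 495 FPKM. In limma, 1 of 10 macrophage markers was lower (Cd163) and 1 of 9 pericyte markers was higher (Kcnj8), where 7.46% of all genes were lower and 8.11% higher. The Cd163 call ended in 6 of the 8 fits without a single library, and the Kcnj8 call in 0. Calls were absent from the 10 fibroblast, 2 lymphatic and 7 skeletal muscle markers tested, with voom as well. Over all 13171 genes tested, limma called 2050 and voom 2322. Of these markers, 1 fibroblast marker and 0 of the others had an unadjusted p under 0.05, beside 32.8% of all genes tested. Brown adipocyte markers had 2 higher and 3 lower of 12. The part of these cell types in the levels of the VEGF family was not tested.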

How the data were processed

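RNA from 8 dissected brown adipose tissue samples was sequenced. The authors deposited 1 table of FPKM values, made, per the submitters' processing notes, with HISAT2 2.0.5 and featureCounts 1.5.0-p3 on mm10, with the gene length in bases beside each gene. FPKM times length came out as whole multiples of 1 read in 100% of values (tolerance 0.001), so reads were back-calculated for the depth and for voom. Libraries of a group differed by 18.5 to 115 chi-square units per degree of freedom, so none was a repeat of another.

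The 13171 genes with a mean of at least 0.5 FPKM were fitted as log2(FPKM + 0.5) with limma 3.58.1 (R 4.3.3, eBayes with trend, two-sided, no covariates), and p-values were Benjamini-Hochberg adjusted over all of them. Ratios were compared by exact permutation over the 70 assignments. Symbols were matched to the table (99.9% of IDs in GENCODE M21, 98.3% of these with the same coordinates). Family, pairs and gene lists were chosen with earlier results of these data known. Named were all members, Ogt, called list genes (up to 6 per list, or the 2 with the smallest p), up to 3 of the most abundant markers of each cell type, of which 1 list is not reported here, and the 4 genes most like Vegfa, Vegfb, Kdr and Flt1. Vegfd, Dll4, Esm1, Hif1a, Epas1, Ckm, Prox1, Cd163 and Kcnj8 were named after their values were seen. Alternatives are given at the end. The limma fit was tested on simulated data.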

Additional observations from a re-analysis of the deposited data

Results flagged for a closer look

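In 5 of the 36 sets of 4 values checked (9 members and 9 ratios in each group), 1 library lay far from the other 3, and chance flags about 1 in 20 such sets. Nrp1 in WT 1 was low, at 19.0 FPKM. In OGTBKO 1, Vegfa/Kdr (1.59) and Vegfa/Flt1 (3.94) were low and Flt1/Kdr (0.404) was high. Pgf/Flt1 in WT 3 was low, at 0.0142, a ratio that rests on few Pgf reads.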

How the results depend on the processing

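The number of genes called was 2050, against 1229 with no filter, 1229 with library totals as denominator, 3516 with array weights and between 692 (without OGTBKO 3) and 2122 (without WT 3) in fits without a single library; it was also below 2050 by over 1.5 times without WT 2 (784), WT 4 (1195), OGTBKO 2 (1175) and OGTBKO 4 (945). A fit with the replicate number as a block called 888 genes, and 525 once GC and length trends were taken out as well. Same-numbered libraries deviated together with correlations of 0.22, 0.17, 0.01 and -0.01, and differently numbered ones with -0.17 to 0.12. Libraries numbered 1 and libraries numbered 2 were thus above all differently numbered ones, and the others were not. Whether the numbers pair the samples is not settled by these values. The number of members called was 0, with the replicate block too, and 1 with array weights (Flt1), 0 to 1 without a single library and 2 with WT 1 and OGTBKO 1 left out (Flt1 and Nrp1). Signs that turned all belonged to members and pairs not called. Vegfb was at 0.10 with library totals, 0.016 with array weights and between -0.086 and 0.062 without a single library. Vegfc ranged from -0.040 to 0.31 without a single library. Kdr was at 0.067 with library totals, 0.0069 with the trend removed (0.0069 in the replicate block fit too) and between -0.13 and 0.012 without a single library. Nrp1 was at 0.054 with the trend removed, block or not. For log2 ratios without a single library, Vegfa/Kdr ranged from -0.38 to 0.027, Vegfa/Nrp1 from -0.24 to 0.25, Vegfa/Flt1 from -0.089 to 0.34, Vegfc/Flt4 from -0.26 to 0.17 and Vegfc/Kdr from -0.029 to 0.42. Without both WT 1 and OGTBKO 1, Vegfa/Kdr was 0.18, Vegfc/Flt4 0.064 and Vegfa/Nrp1 0.37. With the trend removed Vegfa/Flt1 was -0.030, Vegfb/Flt1 -0.052 and Vegfc/Flt4 0.016, and Pgf/Flt1 was not computed, since Pgf is below the filter. The cause was not tested. With all libraries a pair could pass only if most of the 9 pairs reached the smallest exact p. The pair tests cannot pass with fewer libraries, where the smallest exact p is 0.0571 for 3 against 4 and 0.1 for 3 against 3. In a paired exact test by replicate block, whose smallest p is 0.125, Flt1/Kdr had an adjusted p of 0.562. Library totals shifted the median log2 change of all genes to 0.09.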
